A study of Mus musculus with 2 samples.

Results

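Endothelial cells line the blood vessels that supply muscle fibres, and 10 genes known for their expression in these cells were followed in RNA of newborn mouse skeletal muscle. They were chosen by symbol, namely Pecam1, Cdh5, Kdr, Flt1, Tek, Tie1, Egfl7, Esam, Emcn and Eng, and each matched 1 of the 43346 genes in the deposited tables. RNA came from skeletal muscle of B6NCrl mice at postnatal day 0, with no treatment or altered allele named in the labels. Replicate 1 and replicate 2 were each made from 13 pg of tissue RNA, an amount given as 1 cell-equivalent, by a SmartSeq protocol. They hold amplified RNA of a piece of muscle and not of an isolated cell. Each has its own tissue record naming 1 pup, but the donor entry is the same in both, so it is not settled that they are separate animals. The libraries form 1 group and no condition is compared. Between them the animal, the piece of tissue and the amplification cannot be told apart.

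Vessel growth runs through a small set of receptors on these cells. Kdr and Flt1 encode receptors for vascular endothelial growth factor (VEGF), of which Kdr carries most of the growth signal and Flt1 binds the ligand tightly with a weaker signal. Tek and Tie1 encode the angiopoietin receptor and its partner, which keep vessels stable. Cdh5, Pecam1 and Esam encode adhesion proteins of the contacts between endothelial cells, Emcn a sialomucin of capillary and venous surfaces, Eng a co-receptor for bone morphogenetic proteins, and Egfl7 a protein that the cells secrete.

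Replicate 1 held 30432522 expected counts on genes and replicate 2 held 38003159, and spike-in RNAs took a further 5.20% and 2.50% of all counts. An expected count is an estimated number of reads, called reads below, and TPM is a share of all transcripts adjusted for length. Detection required 5 or more reads together with 1 TPM or more. All 12 muscle fibre markers were detected in both libraries, led by the skeletal actin Acta1 at 64537 TPM in replicate 1 and 61754 TPM in replicate 2. Reads were amplified without molecular tags, so counting intervals cover counting error only, and no p-value is given because each library stands alone.

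All 10 endothelial genes were detected in at least 1 library, against 20.6% of all genes, and 7 in both. Replicate 1 held 9 of them and replicate 2 held 8, while 14.6% and 16.0% of all genes were detected in these libraries and 10% in both. Among the 8943 genes detected in at least 1 library, 48.7% were detected in both, 22.3% in replicate 1 only and 29.0% in replicate 2 only. Pecam1 and Emcn were found only in replicate 1, Kdr only in replicate 2, and no endothelial gene was missed by both. The summed level of the 10 genes was 553 TPM in replicate 1 and 290.1 TPM in replicate 2, or 422 ± 186 TPM (SD, n = 2). Leaving Pecam1 out, the sums were 372 TPM in replicate 1 and 290.1 TPM in replicate 2, so 1 gene accounts for most of the gap. In bulk RNA, fewer endothelial cells and less RNA per cell cannot be told apart.

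**Figure D1:**
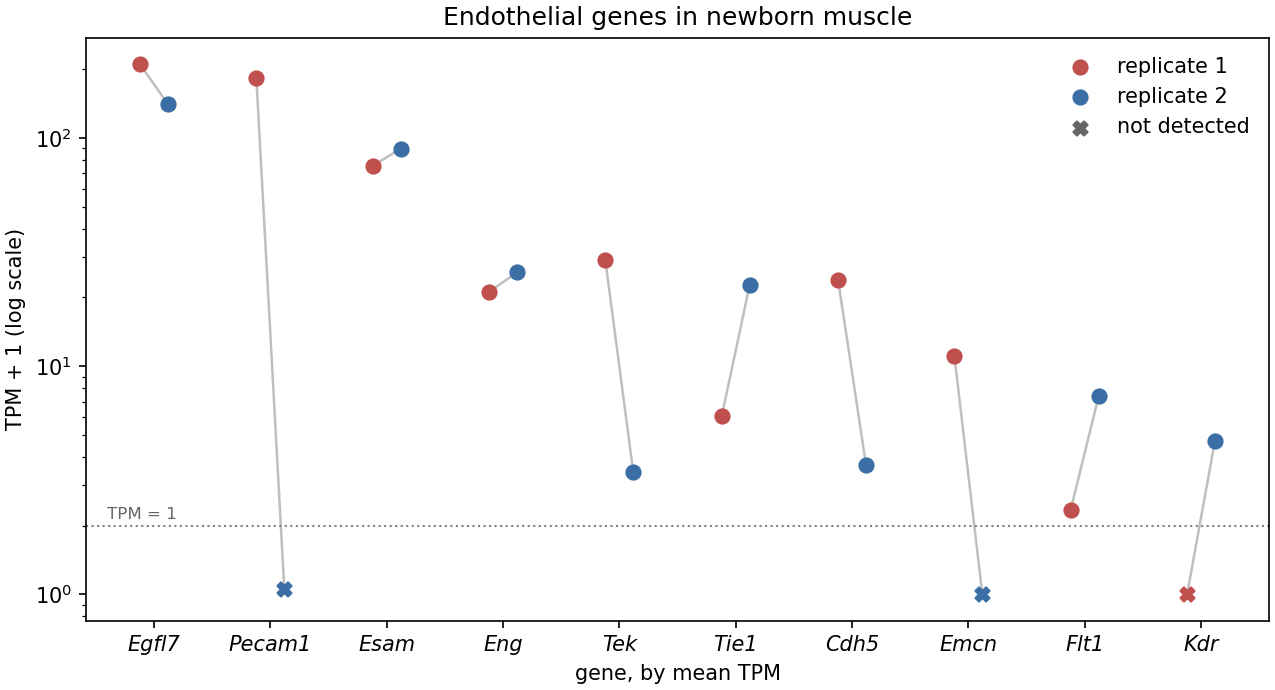
Level of each endothelial gene in replicate 1 (red, left of each pair) and replicate 2 (blue, right), as TPM + 1 on a log axis, with genes ordered by mean TPM and crosses for a gene below the detection limit. Egfl7, Esam and Eng lie close in both libraries, while Pecam1 stands at 182 TPM in replicate 1 and 0.06 TPM in replicate 2.

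The secreted factor Egfl7 was the highest endothelial gene of both libraries. It reached 209 TPM in replicate 1 and 139.7 TPM in replicate 2, from 4764 and 3347 reads, with a mean of 175 ± 49.3 TPM (SD, n = 2). This placed it at rank 621 of 6350 detected genes in replicate 1 and rank 901 of 6949 in replicate 2. Egfl7 alone took 37.9% of the summed endothelial TPM in replicate 1 and 48.2% in replicate 2.

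Among the junction genes, Esam was even and the others were not. Esam, an immunoglobulin-type adhesion molecule of tight junctions (chr9:37528078-37538319, plus strand), had 74.45 TPM in replicate 1 and 88.8 TPM in replicate 2, a mean of 81.6 ± 10.1 TPM. Nearly all of it was 1 transcript, Esam-201, with 3195 of 3199 reads in replicate 1 and 4890 of 4893 reads in replicate 2. Cdh5, the vascular cadherin that holds endothelial cells together (chr8:104101625-104144511, plus strand), had 22.9 TPM in replicate 1 and 2.70 TPM in replicate 2, from 2174 and 328 reads. Both levels were above the detection limit, and replicate 1 was the higher by 8.49-fold in TPM.

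Pecam1, an adhesion molecule of endothelial contacts that platelets and leukocytes also carry (chr11:106654217-106750628, minus strand), gave the widest gap. It had 12711 reads and 182 TPM in replicate 1, against 4 reads and 0.06 TPM in replicate 2. As CPM, reads scaled to the gene reads of the library, these are 418 in replicate 1 and 0.105 in replicate 2, a ratio of 3968 with an exact 95% counting interval of 1549 to 14567. In replicate 1 the reads were spread over the coding transcripts Pecam1-203 with 9140 reads, Pecam1-202 with 3068 reads and Pecam1-205 with 485 reads. All 4 reads of replicate 2 were assigned to Pecam1-208, a transcript annotated as a retained intron, and none to a coding form.

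Of 565 genes within 1.5-fold of the TPM of Pecam1 in replicate 1, 36 were not detected in replicate 2, or 6.37% (Wilson 95% interval 4.64 to 8.69). Of the 718 genes at or above Pecam1 in replicate 1, 7 were missed by replicate 2. Among blood genes, Pf4, a platelet chemokine, had 325 TPM in replicate 1 and 394 TPM in replicate 2, while the platelet genes Itga2b, Gp9 and Ppbp had 0 reads in both and the leukocyte marker Ptprc had 3 reads in replicate 1 and 0 in replicate 2. Cd68, a macrophage gene, was found in replicate 2 only, at 67.0 TPM from 1872 reads. Csf1r, with 6.55 reads in replicate 1 and 0 in replicate 2, and Itgam, with 0 in both, were not detected in either library. The mast cell genes Cma1 and Cpa3 were detected in both. Cma1 had 656 TPM in replicate 1 and 454 TPM in replicate 2. Cpa3 had 646 TPM in replicate 1 and 272 TPM in replicate 2. Over the whole blood list of 16 genes, 7 were detected in both libraries and 1 in replicate 2 only. The shares of all genes were 10% in both and 20.6% in at least 1. The summed level was 4919 TPM in replicate 1 and 4816 TPM in replicate 2. It was led by the globin gene Hba-a2 at 1417 TPM in replicate 1 and 1351 TPM in replicate 2. What blood cells add to the Pecam1 reads was not tested.

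Emcn, the sialomucin (chr3:137341067-137432185, plus strand), had 378 reads and 10.1 TPM in replicate 1 and 0 reads in replicate 2. With up to 3 reads allowed for a count of 0, Emcn was at least 161-fold higher in replicate 1 by TPM, with the floor taken in replicate 2 alone. This bound covers counting error only and not loss of RNA before amplification. Non-detection in replicate 2 was common at this level, for 45.2% (41.6 to 48.8) of 724 genes within 1.5-fold of Emcn in replicate 1. Emcn reads were split between Emcn-201 with 239 reads and Emcn-202 with 139 reads.

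Eng, the endoglin co-receptor (chr2:32646595-32682669, plus strand), had 20.2 TPM in replicate 1 and 24.7 TPM in replicate 2, a mean of 22.4 ± 3.24 TPM (SD, n = 2), with 1623 and 2543 reads. The level was even, but the split of its transcripts was not. Eng-201, with 1959 coding bases, took 62.4% of the TPM of the gene in replicate 1 and 91.6% in replicate 2. Eng-205, with 1956 coding bases, took 36.8% in replicate 1 and 0% in replicate 2. In replicate 1 the posterior SD of either count was 169 reads, so the split is known less closely there.

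Tek and Tie1 showed opposite orders in the libraries. Tek, the angiopoietin receptor (chr4:94739289-94874976, plus strand), had 28.1 TPM in replicate 1 and 2.42 TPM in replicate 2, from 3049 and 336 reads. Tie1, the related orphan receptor (chr4:118471191-118490061, minus strand), had 5.03 TPM in replicate 1 and 21.6 TPM in replicate 2, from 490 and 2526 reads. Replicate 1 was 11.6-fold higher for Tek and replicate 2 was 4.30-fold higher for Tie1, so the log2 ratio of Tek to Tie1 was 2.27 in replicate 1 and −2.73 in replicate 2. The mean of this ratio was −0.23 ± 3.53 (SD, n = 2), so the libraries do not order these receptors. The leading form of Tek also differed. Tek-203 led in replicate 1 with 2038 of 3049 reads, beside 512 reads on Tek-202 and 500 on Tek-201. All 336 reads of replicate 2 were assigned to Tek-202, which has 3216 coding bases against 3369 for Tek-203. In replicate 1 the posterior SD was 137 reads for Tek-203 and 120 reads for Tek-202. The full-length Tie1-201 led in both, with 490 reads in replicate 1 and 2146 reads in replicate 2.

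Both VEGF receptors were low. Kdr, the main signalling receptor (chr5:75932827-75978458, minus strand), had 0 reads in replicate 1 and 677 reads in replicate 2, which is 3.72 TPM. With up to 3 reads allowed for replicate 1, Kdr was at least 176-fold lower in replicate 1 by TPM, again a bound for counting error only. Of 575 genes within 1.5-fold of Kdr in replicate 2, 48.5% (44.5 to 52.6) were not detected in replicate 1, so such a gap is common at this level. Flt1 (chr5:147561604-147726011, minus strand) had 1.35 TPM in replicate 1 and 6.39 TPM in replicate 2, from 204 and 1356 reads, and stood above Kdr in each library.

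The Flt1 reads were assigned to different forms of the gene. Flt1 makes a full-length receptor and a short form that reads on past exon 13 and encodes a secreted, soluble VEGF-binding protein. All 204 reads of replicate 1 were assigned to the short form, Flt1-203, and all 1356 reads of replicate 2 to the full-length form, Flt1-202. The posterior SD of these counts was 0.48 reads in replicate 1 and 0 in replicate 2, which covers the choice between annotated transcripts only. Where the reads lie along the gene, and what unspliced RNA adds to the short form, was not tested. Both forms share 13 exons up to the end of the common part of exon 13, or 2226 bases of the short form, and beyond the last shared base lie 64.6% of the short transcript and 67.4% of the full-length one. The sequences below show where they part, read from the GENCODE M21 transcripts on GRCm38. The lower-case bases are the shared end of exon 13 (chr5:147639225-147639254, minus strand), and the capitals are the first bases that differ. In the short form the capitals run on into the intron (chr5:147639195-147639224), where 92 more coding bases follow, and in the full-length form they are the start of exon 14 (chr5:147634494-147634523).
Flt1-203, short form: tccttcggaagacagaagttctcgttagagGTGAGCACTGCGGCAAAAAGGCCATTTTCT
Flt1-202, full-length form: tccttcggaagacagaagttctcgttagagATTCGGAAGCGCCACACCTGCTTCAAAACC
The short form has 2064 coding bases and the full-length form 3999.

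Egfl7 reads differed in where their transcripts begin. Egfl7 (chr2:26580014-26593120, plus strand) has several first exons, and RefSeq lists 3 starts for it, numbered here along the gene. Transcripts that begin within 100 bases of start 2 held 1921 reads in replicate 1 and 2299 reads in replicate 2. Those of start 3 held 1990 reads in replicate 1, against 154 reads in replicate 2, and those of start 1 held 0 reads in both. Of the gene's TPM, start 2 took 29.5% in replicate 1 and 41.5% in replicate 2, and start 3 took 39.3% in replicate 1 and 3.31% in replicate 2. The leading transcripts, Egfl7-202 of start 2 and Egfl7-216 of start 3, each have 834 coding bases. The other 11 annotated transcripts begin elsewhere and took 31.2% in replicate 1 and 55.2% in replicate 2. By reads they held 853 of 4764 in replicate 1 and 894 of 3347 in replicate 2. TPM weighs short transcripts up, such as Egfl7-218 with 307 bases. Over the whole gene, 4 transcripts annotated as retained introns held 0.0655% of Egfl7 reads in replicate 1 and 11.9% in replicate 2. By level they held 0.36 TPM in replicate 1 and 39.5 TPM in replicate 2.

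The promoters of start 2 and start 3 are shown because the reads assigned to start 3 differed between libraries and those of start 2 much less. Each has 250 bases before and 50 after the start, from RefSeq on GRCm38.p6, plus strand, with start 2 at chr2:26583615-26583914 and start 3 at chr2:26586386-26586685. Capitals mark GGAA or its reverse complement TTCC, the core letters bound by ETS factors, a family known for its role in endothelial gene expression.
Egfl7, start 2: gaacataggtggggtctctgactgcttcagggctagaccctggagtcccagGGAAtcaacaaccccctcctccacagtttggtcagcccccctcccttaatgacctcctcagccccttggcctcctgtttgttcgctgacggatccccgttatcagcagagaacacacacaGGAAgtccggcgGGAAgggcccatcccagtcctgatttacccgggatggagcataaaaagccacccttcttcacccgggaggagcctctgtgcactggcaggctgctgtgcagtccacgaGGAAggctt
Egfl7, start 3: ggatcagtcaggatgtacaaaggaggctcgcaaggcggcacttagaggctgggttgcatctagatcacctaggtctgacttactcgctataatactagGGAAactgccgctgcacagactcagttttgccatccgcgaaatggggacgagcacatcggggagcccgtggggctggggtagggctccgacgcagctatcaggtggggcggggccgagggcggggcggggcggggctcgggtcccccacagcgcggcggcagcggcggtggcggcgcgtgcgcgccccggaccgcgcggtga
Both strands were searched, and the promoter of start 2 holds 4 matches and that of start 3 holds 1. At least 1 match occurs in 96.0% of 32851 promoters of this length, at least 4 in 46.3%, and the median is 3. RefSeq promoters were found for 7 of the 10 genes and not for Pecam1, Cdh5 and Esam. Tie1 had 9 matches, a number that 1.59% of promoters reach, and Emcn had 6, Kdr 5, Eng 4, Flt1 4 and Tek 2. A match describes letters in this window and is not a shown binding site.

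Across the 6 endothelial genes with several annotated transcripts that were detected in both libraries, the leading transcript differed between libraries in 3, namely Egfl7, Flt1 and Tek. Over all 3032 such genes it differed in 34.4%. A complete change, with at least 90% of the gene's TPM on a different transcript in each library, was seen for 1 endothelial gene, Flt1, and for 5.15% of all such genes. Of 56 annotated transcripts of the 10 genes, 22 held at least 5 reads in replicate 1, 17 in replicate 2 and 9 in both. No share over all annotated transcripts stands beside these counts, so they are not read as a trait of the 10 genes.

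**Figure D2:**
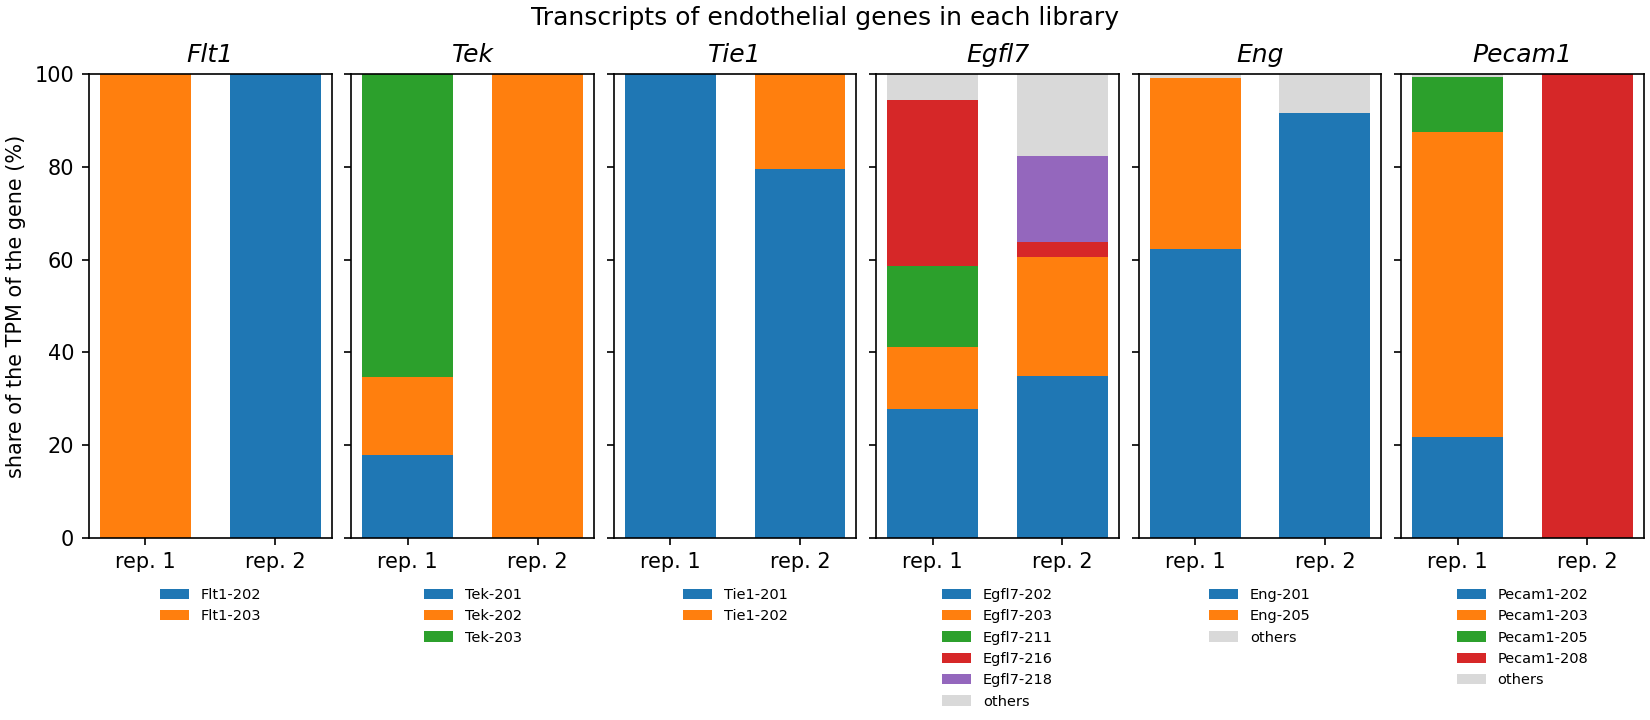
Share of the gene's TPM (%) assigned to each transcript in replicate 1 (left bar) and replicate 2 (right bar) for 6 endothelial genes, with transcripts under 10% in both libraries pooled as others. Flt1 is wholly Flt1-203 in replicate 1 and wholly Flt1-202 in replicate 2, and the replicate 2 bar of Pecam1 rests on 4 reads.

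The order of the endothelial genes was only partly shared. By mean TPM it ran Egfl7, Pecam1, Esam, Eng, Tek, Tie1, Cdh5, Emcn, Flt1 and Kdr. Of 45 pairs, 18 had a log2 ratio of TPM + 1 with 1 sign in both libraries and a mean above 2 SD, which with n = 2 is a description. In 19 pairs the order was opposite in the 2 libraries. Egfl7 stood apart in this way from 7 genes, all but Pecam1 and Esam. Of the 9 pairs of neighbours in the order, 3 stood apart: Esam over Eng by 1.82 ± 0.02, Cdh5 over Emcn by 1.5 ± 0.55 and Flt1 over Kdr by 0.94 ± 0.41. The other neighbours did not differ beyond their spread.

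Endothelial genes did not share a direction between libraries. On the scale of log2(TPM + 1), replicate 1 over replicate 2, minus the median gene, 5 were higher in replicate 1 and 5 in replicate 2. Their median was 0.12, and that of the 10002 genes with at least 5 reads in at least 1 library was −0.13. The median size of the difference without its sign was 2.11 for endothelial genes and 1.71 over all genes. Differences of 4-fold or more toward replicate 1 were seen for 4 genes, where 20.1% of all genes had one. They were Pecam1 at 7.39, Emcn at 3.43, Tek at 3.05 and Cdh5 at 2.65. Toward replicate 2 there was 1 gene, Kdr at −2.28, where 26.0% of all genes had one. Tie1 at −1.95 and Flt1 at −1.69 lay within 4-fold on this scale, although their TPM differed 4.30-fold and 4.73-fold, since adding 1 to TPM narrows low genes. Egfl7 at 0.54, Esam at −0.29 and Eng at −0.32 were the closest.

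Spike-in RNAs were added to both libraries and give a measure of their spread. The 10 spike-ins with mean counts of 1000 to 10000 and at least 10 counts in both libraries reached an absolute log2 ratio of 1.96 around the median spike-in. This value rests on 1 spike-in at −1.96, and the highest of the class was 1.31. Of the 6 endothelial genes in this class, centred on the median gene, Tek and Cdh5 exceeded 1.96, and Tie1, Egfl7, Esam and Eng did not. Tie1 at −1.95 fell just short, so its call depends on that spike-in. Over all genes in classes with at least 5 spike-ins, 22.9% exceeded the value of their class on this centring. The median spike-in lay 0.94 log2 above the median gene, so centring on spike-ins lowers every endothelial value by that amount. Against the absolute value of 1.96 the calls for Cdh5 and Tie1 then swap, with Cdh5 at 1.71 below it and Tie1 at −2.89 past it. Cdh5 still lies above the highest spike-in of the class, at 1.31. Tek at 2.10 exceeds 1.96 on either centring. Cdh5 is then no longer past 4-fold, and Egfl7 at −0.40 turns its direction.

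**Figure D3:**
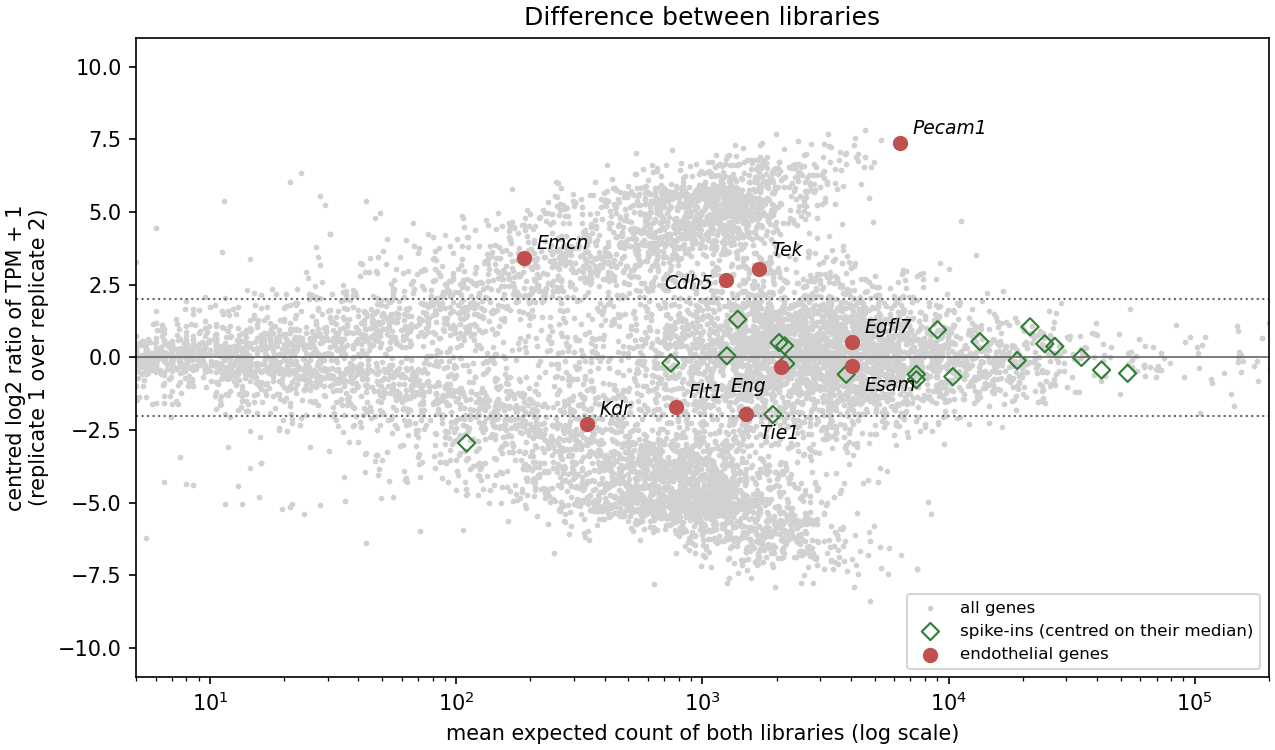
Centred log2 ratio of TPM + 1, replicate 1 over replicate 2, against the mean expected count of both libraries (log axis), with all genes in grey, spike-ins as open diamonds and endothelial genes in red. Dotted lines mark 4-fold; Egfl7, Esam and Eng lie near 0, Pecam1 at 7.39 and Kdr at −2.28.

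Of 8 genes of VEGF ligands and co-receptors, 1 was detected in both libraries, 1 in replicate 1 only and 2 in replicate 2 only, where 10% of all genes were detected in both and 20.6% in at least 1. Nrp1, a VEGF co-receptor that other cell types also carry, had 86.7 TPM in replicate 1 and 23.9 TPM in replicate 2. Vegfc, a ligand of lymphatic growth, had 953 reads in replicate 1 and 0 in replicate 2. Vegfb had 1 read in replicate 1 and 186 in replicate 2. Vegfa, the main ligand of Kdr, was seen in replicate 2 alone, with 387 reads. Of 4 genes around the Tie receptors, none was detected in both. The Tek ligand Angpt1 was seen in replicate 2 alone, with 772 reads, and Ptprb, the phosphatase that acts on Tek, had 480 reads in replicate 1 and 0 in replicate 2.

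Of 14 signalling partners of Eng, 4 were seen in both libraries and 1 more in each library alone. The shares of all genes were 10% in both and 20.6% in at least 1. Id3, a target of bone morphogenetic protein signals, led with 97.8 TPM in replicate 1 and 25.5 TPM in replicate 2. Smad1 had 15.1 TPM in replicate 1 and 6.73 TPM in replicate 2, the receptor Bmpr2 had 1.57 TPM in replicate 1 and 2.31 TPM in replicate 2, and the common mediator Smad4 had 1.01 TPM in replicate 1 and 35.0 TPM in replicate 2. Replicate 1 held 2 reads and replicate 2 held 2325 reads of Tgfbr2, a receptor for transforming growth factor beta. Smad5 had 490 reads in replicate 1 and 111 in replicate 2, where it fell short of 1 TPM.

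Of 10 junction partners, 4 were seen in both libraries, 1 in replicate 1 only and 2 in replicate 2 only. The shares of all genes were 10% in both and 20.6% in at least 1. Ctnna1, the alpha-catenin that links cadherins to actin, was even at 71.0 TPM in replicate 1 and 71.2 TPM in replicate 2. Ctnnb1, the beta-catenin, had 64.0 TPM in replicate 1 and 169.8 TPM in replicate 2, Jam3 had 61.6 TPM in replicate 1 and 38.3 TPM in replicate 2, and Jup, the plakoglobin, had 2.34 TPM in replicate 1 and 46.5 TPM in replicate 2. All of these are also made by other cells. Cldn5, the claudin of endothelial tight junctions, had 2030 reads and 63.3 TPM in replicate 1 and 0 reads in replicate 2, and Ctnnd1 had 0 reads in replicate 1 and 2467 reads in replicate 2.

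Transcription factors of endothelial cells were detected in both libraries for 5 of 16 genes, in replicate 1 alone for 1 and in replicate 2 alone for 3. The shares of all genes were 10% in both and 20.6% in at least 1. The ETS factor Ets2 had 42.5 TPM in replicate 1 and 43.3 TPM in replicate 2, and Fli1, of the same family, had 32.2 TPM in replicate 1 and 11.7 TPM in replicate 2. Sox7 had 26.7 TPM in replicate 1 and 7.84 TPM in replicate 2. Mef2c, at 120 TPM in replicate 1 and 165 TPM in replicate 2, is also a factor of muscle fibres. Gata2 was listed at 0 in replicate 1 and had 1908 reads in replicate 2, while Nr2f2, a venous factor, had 1759 reads in replicate 1 and 0 in replicate 2.

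Of 22 further endothelial markers, 7 were detected in both libraries, 3 in replicate 1 only, 7 in replicate 2 only and 5 in neither. The shares of all genes were 10% in both and 20.6% in at least 1. Cd34, which fibroblasts also carry, had 257 TPM in replicate 1 and 217 TPM in replicate 2. Sparcl1 had 135 TPM in replicate 1 and 120.3 TPM in replicate 2. Gpihbp1, the lipase carrier of capillaries, had 61.8 TPM in replicate 1 and 124 TPM in replicate 2, and Ecscr had 63.7 TPM in replicate 1 and 95.1 TPM in replicate 2. Icam2 had 2331 reads and Ramp2 had 831 reads in replicate 2, and replicate 1 held no read of either. Of the 18 markers compared, 3 were 4-fold or more higher in replicate 1 and 9 in replicate 2, where 20.1% and 26.0% of all genes were. Their median centred log2 ratio was −1.56, beside 0.12 for the 10 endothelial genes above and −0.13 for all genes.

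Cell types next to the endothelium were measured in the same libraries. Mural cell markers were detected in both for 5 of 12 genes, in replicate 1 only for 2 and in replicate 2 only for 5. For all lists of this paragraph, the shares of all genes were 10% in both and 20.6% in at least 1. The mural markers had a summed level of 1191 TPM in replicate 1 and 1709 TPM in replicate 2. Des and Acta2, which muscle fibres also make, held 752 and 319 TPM of this sum in replicate 1 and 955 and 487 TPM in replicate 2. Markers of these cells went in both directions, but more of them toward replicate 2. Of the 12 compared, 2 were 4-fold or more higher in replicate 1 and 6 in replicate 2. Of all genes, 20.1% and 26.0% were. The median centred log2 ratio of the mural markers was −1.80, beside −0.13 for all genes. Higher in replicate 2, Kcnj8, a pericyte channel, had 19.0 TPM in replicate 1 and 88.2 TPM in replicate 2, Mcam had 29.0 TPM in replicate 1 and 75.9 TPM in replicate 2, and Tagln had 1 read in replicate 1 and 1084 reads in replicate 2. Abcc9, the partner of Kcnj8 in this channel, had 0.83 TPM in replicate 1 and 20.7 TPM in replicate 2. Higher in replicate 1, the pericyte receptor Pdgfrb had 11.5 TPM in replicate 1 and 0.63 TPM in replicate 2, Notch3 had 7.20 TPM in replicate 1 and 0.10 TPM in replicate 2, and Rgs5 had 53.0 TPM in replicate 1 and 31.6 TPM in replicate 2. Of 6 lymphatic markers, Lyve1 with 88.4 TPM in replicate 1 and 24.8 TPM in replicate 2 and Pdpn with 88.2 TPM in replicate 1 and 3.33 TPM in replicate 2 were detected in both. The defining lymphatic genes Prox1 and Flt4 had 0 reads in both libraries, and Lyve1 and Pdpn are also made by macrophages and fibroblasts. All 9 fibroblast markers were detected in both, with a summed level of 8045 TPM in replicate 1 and 5334 TPM in replicate 2.

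**Figure D4:**
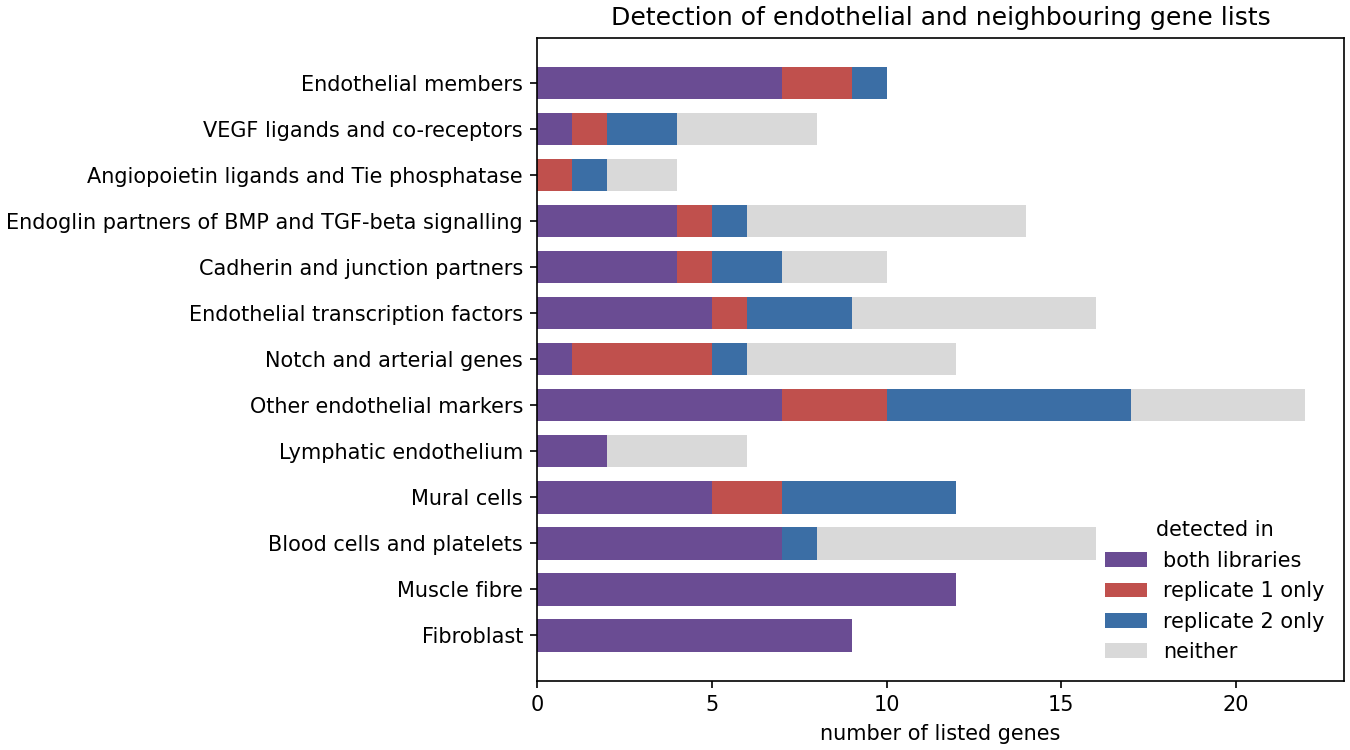
Number of listed genes (x axis) detected in both libraries, in replicate 1 only, in replicate 2 only and in neither, for the 10 endothelial genes at the top and 12 other lists. Muscle fibre and fibroblast lists were detected in full in both libraries, the endothelial genes in 7 of 10.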

How the data were processed

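Expression was measured in 2 libraries of newborn mouse skeletal muscle, 1 group. Per the file headers and the descriptions deposited with them, the build is mm10, the annotation GENCODE M4 and the columns those of RSEM. Aligner, versions and use of strand: not given in the sources used here. Expected counts were deposited by the authors without normalization. TPM, as deposited by the authors, also counts the spike-ins in its total. The percent of a gene's TPM per transcript and the posterior SD of a count, kept here as a score, are the authors' deposited values.

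Symbols and positions came from GENCODE M21 on GRCm38, the same assembly as mm10, by identifier without version, which named 42462 of 43346 genes. Of the 56 transcripts of the endothelial genes, all were in M21 and 55 had the length given in the files. Numbered rows (0 and 182 counts) and 1 other row were left out. Log2 ratios used TPM + 1 and were centred on the median of 4872 genes that had 10 or more counts in each library, which was 0.04. Bounds used 3 counts for a count of 0. Intervals are 95% Wilson, or exact binomial for a ratio of reads. The named genes are the 10 endothelial genes, and of every other list up to 4 detected in both with the highest mean TPM and up to 2 detected in 1 library with the highest TPM. Vegfa, Pf4, Itga2b, Gp9, Ppbp, Ptprc, Csf1r, Itgam, Cpa3, Ephb4, Pdgfrb, Notch3, Rgs5, Prox1 and Flt4 were named after their values were seen. Members, lists and rules were chosen with earlier results of these data known. The ratio calculation was tested on simulated data. With a pair of libraries no gene is named for a like pattern. edgeR 4.0.16 and DESeq2 1.42.0 in R 4.3.3 served only for alternative scaling of expected counts, rounded to whole numbers. The remainder ran in Python 3.11.15 (matplotlib 3.10.9 for plots, scipy 1.17.1 for intervals, pandas 2.3.3, numpy 2.4.6). Opposite-strand neighbours overlap Egfl7 (Agpat2, 666 reads in replicate 1 and 0 in replicate 2) and Eng (Fpgs, 57 and 0), and reads of such overlaps may not be told apart.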

Additional observations from a re-analysis of the deposited data

How the results depend on the processing

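The number of endothelial genes detected in both libraries, 7, stayed within 1.5 times under each detection rule tried, as did the number whose leading transcript differed (3) and the 57 genes of the other lists detected in both. Taking replicate 1 or replicate 2 alone, a setting chosen after seeing the data, gave 9 and 8 detected genes. The summed level of 422 TPM ran from 290.1 to 553 TPM with 1 library left out, and was 680 as CPM, which is not adjusted for length. The median log2 ratio of 0.12 turned to −0.82 when centred on the median spike-in and to −0.29 when a gene needed 10 or more counts in each library, which leaves out Pecam1, Emcn and Kdr. The 5 genes past 4-fold became 1 (Pecam1) with a pseudocount of 10 and 2 under that count minimum. Those higher in replicate 1, 4, became 1 and 2 under these settings. Those higher in replicate 2, 1, became 3 with spike-in centring, 2 with TMM and with DESeq2 size factors, 3 with a pseudocount of 0.1, and 0 with a pseudocount of 10 and under that count minimum. Egfl7 turned to −0.40 with spike-in centring. Of 87 log2 ratios of single genes under alternatives, 6 came to lie past 4-fold, 5 came to lie within it and 1, Egfl7, turned. Sizes moved even where the call held: Kdr at −2.28 was −4.21 with TMM and −5.31 with a pseudocount of 0.1, where Emcn at 3.43 was 6.62, and Pecam1 at 7.39 was 4.23 with a pseudocount of 10. No paired analysis was possible because the libraries form a single group. At this input a gene of low level is often seen in 1 library only, so that a count of 0 does not show absence of the RNA.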

Other observations

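Genes of Notch signalling and of arterial or venous identity, which act beside the VEGF receptors in vessel sprouting, were measured as a list of 12. Of these, 1 was detected in both libraries, 4 in replicate 1 only and 1 in replicate 2 only. The shares of all genes were 10% in both and 20.6% in at least 1. Notch1, the receptor detected in both, had 3.78 TPM in replicate 1 and 8.64 TPM in replicate 2. The connexins of arterial endothelium lay on opposite sides. Gja5 was seen in replicate 1 alone, with 2797 reads, and Gja4 in replicate 2 alone, with 1825 reads. The venous marker Ephb4 had 2725 reads in replicate 1 and 27 in replicate 2, where it fell short of 1 TPM. It is among the genes detected in replicate 1 only and among those past 4-fold there. The 7 genes compared had a median centred log2 ratio of 2.69, and 4 of them were 4-fold or more higher in replicate 1 and 1 in replicate 2, where 20.1% and 26.0% of all genes were.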
